A study of Mus musculus with 9 samples.

Results

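The genes described here encode the Rab GTPases and the SNARE proteins that carry vesicles through the secretory and endocytic routes of a cell. They were chosen by name. A gene was a member if its symbol was Rab with a number, began with Vamp, Stx or Sec22, or was Snap23, Snap29 or Ykt6, while Rab effector and regulator genes, syntaxin-binding proteins and pseudogenes were left out. The rule found 67 of the 11206 genes that had a value in at least 1 library. They were 39 protein-coding Rab genes, 26 SNARE or Sec22 genes and 2 antisense RNAs, Rab10os and Rab26os, whose symbols also meet the rule. A further 23 gene names that fit it in the annotation, among them Rab27a and Rab27b, had no row in the 9 tables.

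The RNA came from the fat layer of milk that 9 ICR (CD1) outbred female mice gave on lactation day 10 of a first lactation, with 1 library from each dam. Of these dams, 5 received the control diet, with 10% of energy as fat and 3.85 kcal per gram, and 4 the high fat diet, with 60% of energy as fat and 5.24 kcal per gram, and sucrose supplied 7% of energy in both. Each diet started at 4 weeks of age and was kept through the 4 weeks before mating, pregnancy and lactation. No genotype differed between the groups. The dams shared cages in pairs of the same diet until mating and the labels do not say which shared one, so p-values measure the spread between dams as if each stood alone. The files give FPKM, fragments per kilobase of transcript normalised to the library's reads, and they hold a row only where the FPKM was above 1. A gene without a row is called unlisted here, and libraries are called control dam 1 to 5 and high fat dam 1 to 4.

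Rab proteins are small GTPases that switch between a GDP-bound form held in the cytosol and a GTP-bound form on a membrane, where they recruit motors and tethers and so give each compartment its identity. SNARE proteins then fuse the membranes: an R-SNARE (the Vamp proteins, Sec22 and Ykt6) on one side zips together with Qa-, Qb- and Qc-SNAREs (syntaxins and the Snap proteins) on the other. In the lactating mammary epithelial cell these routes carry casein micelles and whey proteins to the apical surface, while milk fat leaves as droplets wrapped in apical membrane, with some cytoplasm and its RNA enclosed.

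Promoter sequences of members are shown for a pair of motifs, and any part of the motifs in the members' levels was not tested. RefSeq (GRCm38.p6) held promoter windows, from 250 bases before to 50 bases after a transcript start, for 60 of the 67 members, 75 windows in all. The letters TTCNNNGAA read the same on both strands and are the core that STAT factors bind, among them STAT5, which carries the prolactin signal. They occurred in 8 of the 75 windows (10.7%), against 6.82% of 7051 windows of tested genes and 8.30% of 32851 windows of all genes. The 8 windows belonged to Rab25, Stx17, Vamp8, Rab11a, Rab34, Rab10os, Rab15 and Sec22a. The windows of 3 of the more abundant ones are printed 5′ to 3′ on the gene's strand, with the match in capitals.
Vamp8 promoter, chr6:72390618-72390917, minus strand: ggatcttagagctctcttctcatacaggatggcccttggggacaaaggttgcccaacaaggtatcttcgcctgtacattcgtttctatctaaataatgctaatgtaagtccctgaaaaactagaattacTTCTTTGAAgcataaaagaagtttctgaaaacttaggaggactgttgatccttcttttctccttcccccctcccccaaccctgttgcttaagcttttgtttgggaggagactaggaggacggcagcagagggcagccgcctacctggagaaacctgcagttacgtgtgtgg
Rab11a promoter, chr9:64737707-64738006, minus strand: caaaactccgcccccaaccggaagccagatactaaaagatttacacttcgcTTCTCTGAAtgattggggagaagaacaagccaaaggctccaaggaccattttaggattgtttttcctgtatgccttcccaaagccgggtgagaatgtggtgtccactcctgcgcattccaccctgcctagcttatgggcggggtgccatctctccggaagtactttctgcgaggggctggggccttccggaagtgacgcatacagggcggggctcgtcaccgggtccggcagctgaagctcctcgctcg
Rab25 promoter, chr3:88548230-88548529, minus strand: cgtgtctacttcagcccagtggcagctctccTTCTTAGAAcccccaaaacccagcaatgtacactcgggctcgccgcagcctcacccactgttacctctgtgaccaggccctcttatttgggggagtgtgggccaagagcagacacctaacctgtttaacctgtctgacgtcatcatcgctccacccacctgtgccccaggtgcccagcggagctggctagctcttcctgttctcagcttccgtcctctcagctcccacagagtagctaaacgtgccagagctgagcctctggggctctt
The match begins 121 bases before the start site in Vamp8, 199 in Rab11a and 219 in Rab25.

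The letters CACGTG with GT before and AC after form a palindrome, the element bound by TFEB and its relatives, which switch on genes of lysosomes and endosomes. Each match thus also holds the shorter CACGTG. The longer form occurred in 3 member windows (4%), those of the endosomal Rab genes Rab5a, Rab21 and Rab24, against 0.865% of windows of tested genes and 0.326% of all windows. A stretch of 30 bases around each match is printed in the same way.
Rab5a, chr17:53479127-53479156, plus strand: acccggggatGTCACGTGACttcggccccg
Rab21, chr10:115315604-115315633, minus strand: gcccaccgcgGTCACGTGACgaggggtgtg
Rab24, chr13:55321961-55321990, minus strand: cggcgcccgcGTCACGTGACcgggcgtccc
The match begins 97 bases before the start site in Rab5a, 32 in Rab21 and at the start site itself in Rab24. On either strand, CACGTG occurred in 9.33% of member windows and 10.7% of windows of tested genes, GGGCGG in 68% and 65.5%, CCAAT in 46.7% and 37.2%, and CCGGAAG in 8% and 20.2%. A match is a string of letters and shows no binding in these samples.

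The 9 tables listed 2075 to 8903 genes each, with 7098 to 8903 in the control libraries and 7974, 5124, 2075 and 4986 in high fat libraries 1 to 4. Median-of-ratios size factors, which measure how high the genes listed in all 9 libraries stood in each, ran from 0.759 to 2.33 in control dams and from 0.213 to 1.44 in high fat dams, lowest in high fat dam 3. The secretory luminal markers fitted milk-secreting epithelium: all 8 were listed, 7 of them in every library, with a summed level of 10131 to 20930 FPKM in control dams and 4172 to 19230 in high fat dams. Wap made up most of that sum, and 2 of the 8 fell: Krt18 (log2 fold change, high fat minus control, -2.42, limma adjusted p = 0.0403) and Epcam (-2.49, limma adjusted p = 0.0181), whose part in the members' values was not tested. Of 5 basal markers, Krt14 and Acta2 were listed at 1.03 to 6.47 FPKM, and Krt5, Myh11 and Trp63 were unlisted. Adipocyte and erythroid markers were unlisted, and the endothelial marker Pecam1 was listed in control dam 5 alone, at 1.10 FPKM.

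Most Rab and SNARE genes were present in milk fat RNA at low to moderate levels. Of the 67 members, 48 were listed in all 5 control libraries, 18 in all 4 high fat libraries and the same number, 26.9% of members, in all 9, against 16.5% of all genes. The control libraries listed 57, 51, 58, 59 and 60 members, and the high fat libraries 53, 43, 18 and 41. High fat dam 1 stood within the control range in this count, and the other high fat libraries stood below it. Summed over the members, the level was 797, 262, 606, 769 and 393 FPKM in control dams and 430, 267, 45.3 and 182 FPKM in high fat dams. The diets overlapped in this sum, since high fat dam 1 and 2 were above control dam 2. As a share of the FPKM of nuclear protein-coding genes, the members held 0.425%, 0.372%, 0.457%, 0.410% and 0.35% in control dams and 0.319%, 0.420%, 0.178% and 0.291% in high fat dams. Of the 18 members listed in all 9 libraries, 13 had their highest high fat value in high fat dam 1 and 17 their lowest in high fat dam 3. In milk fat, which is a bulk sample, fewer cells or globules with these transcripts and less of each transcript per cell cannot be told apart.

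**Figure D1:**
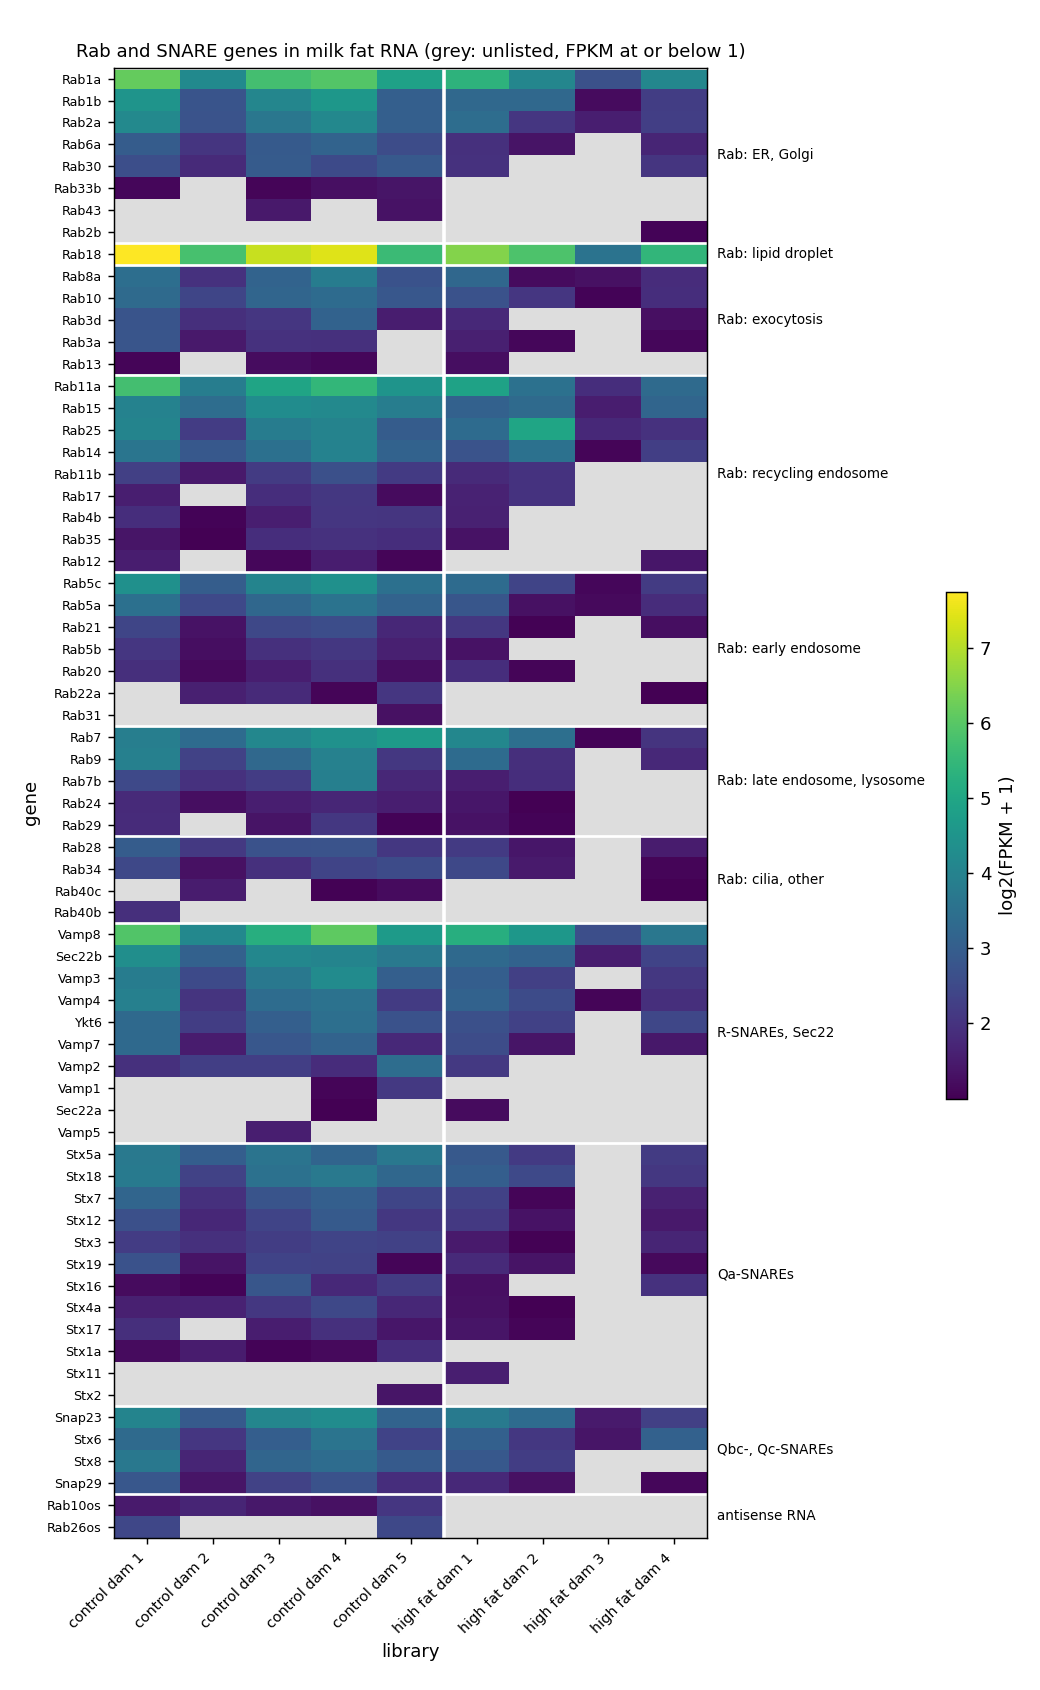
Level of each of the 67 Rab and SNARE genes (rows, grouped by role) in the 9 libraries (columns) as log2(FPKM + 1), with unlisted values in grey. Rab18, Rab1a, Vamp8 and Rab11a have the highest control means and are listed in every library. Each is lowest in high fat dam 3, at 10.8, 5.38, 5.13 and 2.66 FPKM. High fat dam 3, with 18 members listed, is grey over most rows.

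**Figure D2:**
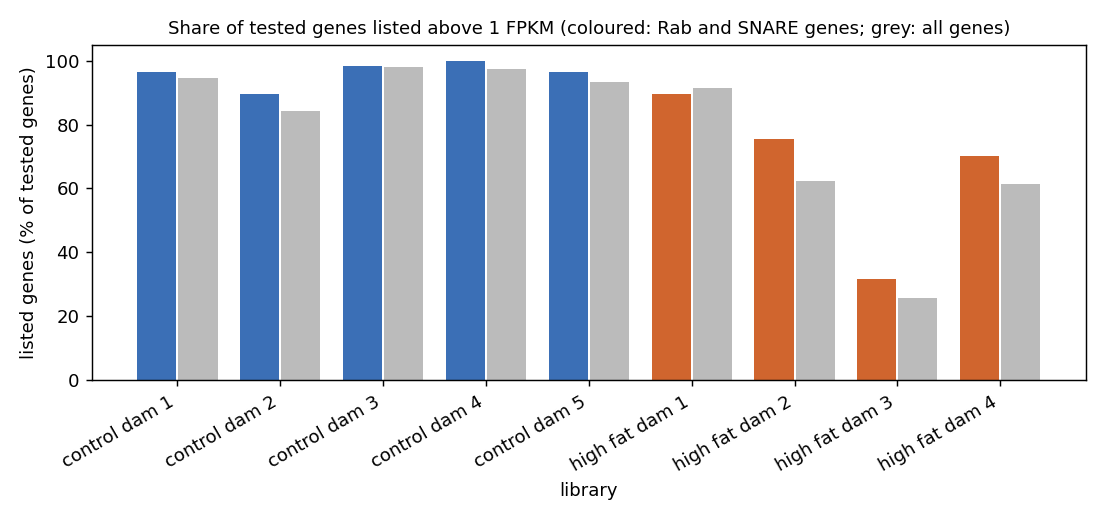
Share of tested genes with a row in each library, in percent, for the 57 tested Rab and SNARE genes (blue, control diet; orange, high fat diet) and for all 7983 tested genes (grey). High fat dam 3 listed 31.6% of the members and 25.6% of all tested genes.

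Between the diets, 13 of the 57 tested members were lower in high fat dams and 0 were higher (limma on log2(FPKM + 1), Benjamini-Hochberg adjusted p under 0.05 over 7983 genes). That is 22.8% of the members, beside 20.8% of all tested genes lower and 0.0% higher, so the members were called at about the rate of other genes. The Rab genes gave 7 of 35 lower (20%, median log2 fold change -1.20) and the SNARE and Sec22 genes 5 of 21 (23.8%, median -1.18), and Rab10os was the remaining one. At an unadjusted p under 0.05 the members numbered 30 lower and 0 higher, beside 49.6% of all tested genes in either direction. Their median log2 fold change (log2FC, high fat minus control, of FPKM + 1) was -1.18 and that of all tested genes -1.08, a ratio of 0.474, so each change is best read against that shift, and 37 members lay below it and 20 above. All 57 fold changes were negative on the deposited scale, but 51 were after size factors and 33 after quantile normalisation, each with 0 members called. Of all 7983 tested genes, 7890, 6653 and 3742 were negative on the same 3 scales. The diets did not overlap in 7 tested members (12.3%, beside 11.1% of all tested genes), with control dams higher in all 7: Rab6a, Rab15, Stx1a, Stx3, Stx4a, Stx5a and Rab10os. After size factors the diets overlapped in Rab6a, Rab15, Stx3, Stx4a and Stx5a. Stx1a and Rab10os were unlisted in every high fat library and entered as 0. No size factor changes a 0, so scaling cannot show whether the diets overlap in these genes. The count of called members rested on single libraries: it was 4, 18, 0, 2 and 1 without control dam 1 to 5 in turn, and 38, 0, 0 and 0 without high fat dam 1 to 4 in turn. The count over all tested genes, 1662 with every library, moved with it, to 808, 2348, 82, 290 and 259 and to 5215, 74, 16 and 162.

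The 13 called members were ones that some high fat library did not list. All 13 were listed in the 5 control libraries and unlisted in at least 1 high fat library, and 11 were unlisted in at least 2. None of the 18 members listed in all 9 libraries was called, and in a limma fit of the 1847 genes listed in all 9 alone 0 of them were called and 9 were lower at an unadjusted p under 0.05, beside 15 called and 671 lower at that p among the 1847. In high fat dam 3, the library with the fewest genes, 39 of the 57 tested members were unlisted. That library listed 31.6% of the tested members and 25.6% of all tested genes. Being unlisted in a high fat library was thus usual for tested genes and is no trait of the called members. The authors' upper bound stood 23.1% to 37.1% above the FPKM of the median listed member in the control libraries, and 27.5%, 44.8%, 81.7% and 31.1% above it in high fat dam 1 to 4, so values are least precise in high fat dam 3.

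**Figure D3:**
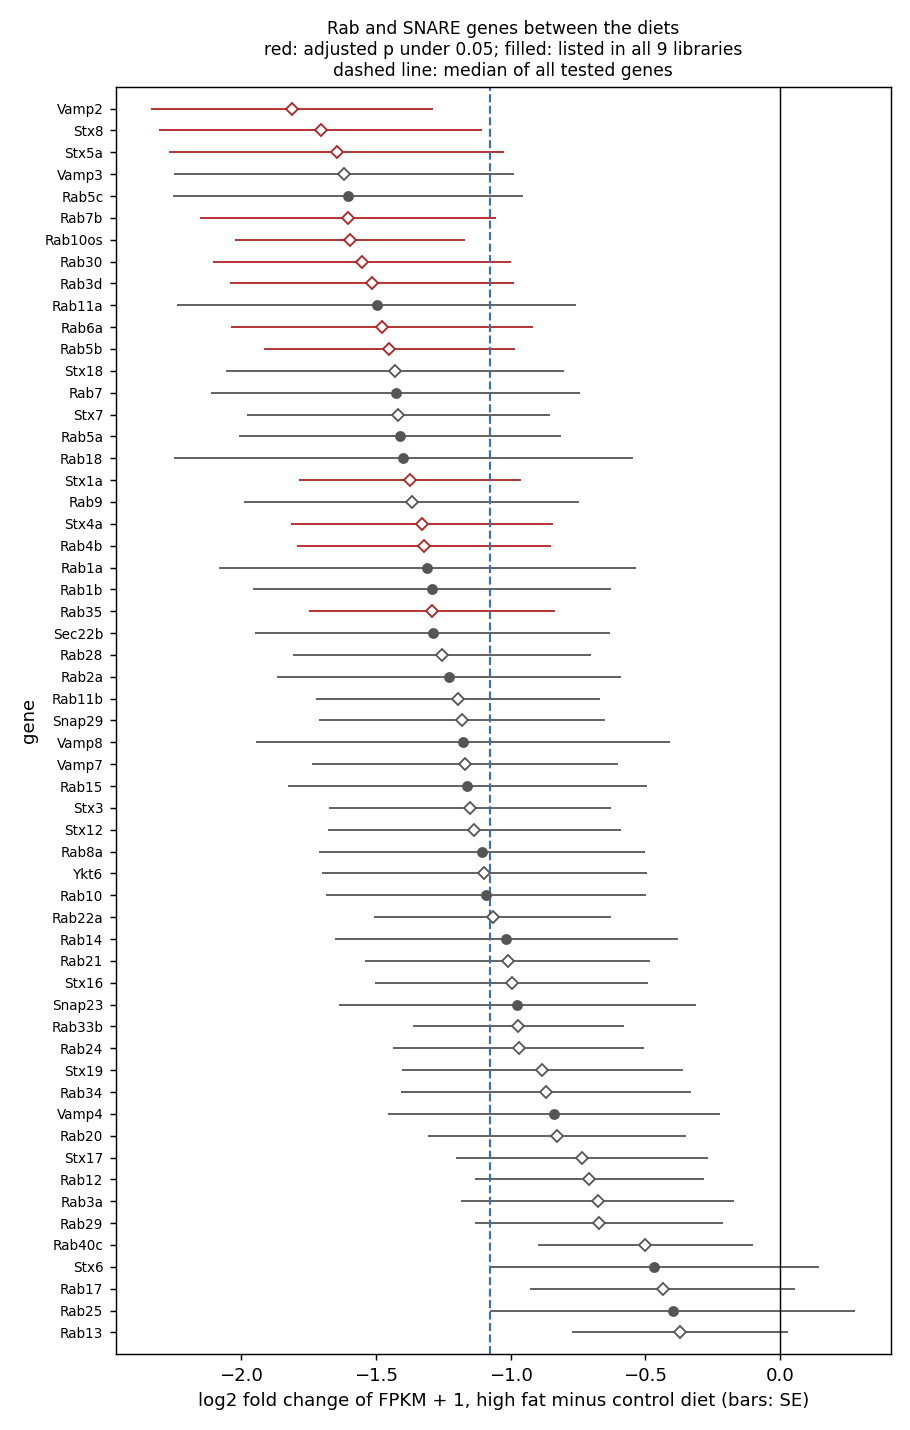
Log2 fold change of FPKM + 1, high fat minus control diet, with its SE, for the 57 tested members. Red marks the 13 with an adjusted p under 0.05, filled circles the 18 listed in all 9 libraries, open diamonds the others, and the dashed line the median of all tested genes at -1.08; no red symbol is filled.

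Among the Rab GTPases of the ER and Golgi, 2 of 6 tested members fell, Rab6a and Rab30. Each role holds few tested genes, so its count here and below is best read beside the 20.8% of all tested genes called lower. Rab6a, which directs traffic out of and back to the Golgi, had 6.85, 3.09, 6.52, 7.89 and 4.98 FPKM in control dams and 2.83, 1.57, unlisted and 2.26 in high fat dams (log2FC -1.48, SE 0.562, limma adjusted p = 0.0492). Each control value as deposited was above each high fat value, but the diets overlapped after size factors. Rab30, a Golgi Rab, had 5.11, 2.49, 6.69, 4.73 and 6.43 FPKM in control dams and was listed in high fat dam 1 and 4 at 2.89 and 3.13 (log2FC -1.55, SE 0.553, adjusted p = 0.0416). Those high fat values were above control dam 2, so the groups overlapped.

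Rab1a, which brings vesicles from the ER to the Golgi, was the second most abundant member, at rank 512 of all genes by its control mean. Its level was 70.0, 17.5, 52.2, 60.7 and 28.0 FPKM in control dams and 40.2, 16.2, 5.38 and 16.5 FPKM in high fat dams. The means were 45.7 ± 22.2 FPKM (SD, n = 5) and 19.6 ± 14.7 FPKM (SD, n = 4), and the difference did not pass the test (log2FC -1.31, SE 0.775, limma adjusted p = 0.146). Its close relative Rab1b, at 14.7 ± 7.96 FPKM (SD, n = 5) and 5.59 ± 3.71 FPKM (SD, n = 4), did not pass either (log2FC -1.29, adjusted p = 0.105). Rab33b, a Golgi Rab tied to autophagy, was listed in 4 control libraries at 1.13 to 1.61 FPKM and in no high fat library (log2FC -0.97, adjusted p = 0.0568). Rab2a, the remaining tested gene of this role, had an adjusted p of 0.109. Rab43 was listed at 1.78 FPKM in control dam 3 and 1.52 FPKM in control dam 5 and was not tested.

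Rab18 was the most abundant member, at rank 238 of all genes. This Rab sits on lipid droplets and at their contacts with the ER. Its level was 214, 54.4, 143, 172 and 47.2 FPKM in control dams and 89.9, 57.7, 10.8 and 42.8 FPKM in high fat dams. Control dam 2 and 5 stood below high fat dam 1 and 2, and the groups overlapped. The means of 126 ± 73.2 FPKM (SD, n = 5) and 50.3 ± 32.9 FPKM (SD, n = 4) differed by an amount that did not pass the test (log2FC -1.40, SE 0.853, limma adjusted p = 0.155). In high fat dam 3, the authors' bounds for Rab18 ran from 9.37 to 12.3 FPKM, so its low value there was well above the listing limit of 1.

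Of the 5 Rab GTPases of exocytosis, Rab3d was the member that fell. Rab3d is found on the secretory granules of exocrine glands. It had 5.75, 2.74, 3.22, 7.69 and 1.90 FPKM in control dams and was listed in high fat dam 1 and 4 at 2.44 and 1.42 FPKM (log2FC -1.51, SE 0.527, limma adjusted p = 0.0386). The high fat dam 1 value was above control dam 5. Rab8a, which directs Golgi vesicles to the plasma membrane and the cilium, had 7.85 ± 3.95 FPKM (SD, n = 5) and 3.51 ± 3.46 FPKM (SD, n = 4), a difference that did not pass the test (log2FC -1.11, adjusted p = 0.122). The other members of this role, Rab10, Rab13 and Rab3a, had log2 fold changes from -1.09 to -0.37 and adjusted p-values from 0.121 to 0.383.

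Recycling endosome Rabs return membrane proteins to the cell surface, in epithelia often to the apical side. Of 9 tested, Rab4b and Rab35 fell. Rab4b, of the fast recycling route, had 2.71, 1.10, 1.99, 3.18 and 3.12 FPKM in control dams and was listed in high fat dam 1 alone, at 2.10 (log2FC -1.32, SE 0.471, limma adjusted p = 0.0418). Rab35, of recycling at the plasma membrane, had 1.00 to 2.91 FPKM in control dams and 1.49 in high fat dam 1, the single high fat library to list it (log2FC -1.29, SE 0.456, adjusted p = 0.0409). In both genes the high fat dam 1 value lay inside the control range.

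Rab11a, the general recycling Rab, was listed at 52.6, 13.5, 29.5, 43.4 and 21.6 FPKM in control dams and 28.5, 10.4, 2.66 and 9.13 FPKM in high fat dams. High fat dam 1 was above control dam 2 and 5, and the test was not passed (log2FC -1.5, SE 0.740, limma adjusted p = 0.0971). Rab15, an endosomal Rab of the recycling route, had 9.73 to 18.5 FPKM in control dams and 1.89 to 9.0 FPKM in high fat dams. Those ranges did not overlap, although the test over all genes was not passed (log2FC -1.16, adjusted p = 0.137). After size factors the diets overlapped in Rab15. The other 4 genes of this role, Rab11b, Rab12, Rab14 and Rab17, had adjusted p-values from 0.0735 to 0.404. Rab11b has a pseudogene, Rab11b-ps2, with which reads could be shared, so its value is uncertain.

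Rab25, the epithelial relative of Rab11a, had 15.5, 3.59, 13.4, 15.1 and 6.85 FPKM in control dams and 9.29, 30.3, 2.43 and 2.87 FPKM in high fat dams. High fat dam 2 held the highest value of the 9, while high fat dam 3 and 4 held the lowest ones. Its log2FC of -0.40 (SE 0.678, limma adjusted p = 0.577) lay 0.68 above the median of all genes, and turned to 0.70 after size factors. The ratio of Rab11a to Rab25 within a library was 3.39, 3.75, 2.21, 2.86 and 3.15 in control dams and 3.07, 0.344, 1.09 and 3.18 in high fat dams. Of the secretory luminal markers, Csn2, Csn3 and Wap were also lowest in high fat dam 2. Csn2 (beta-casein) was at 162 FPKM there, against 1491 to 3478 FPKM in the other 8. Lalba, Krt8, Krt18 and Elf5 were instead lowest in high fat dam 3, where Epcam was unlisted. Any part of these differences in the Rab25 value was not tested.

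Of the early endosome Rabs, 1 of 6 tested genes fell. Rab5b, one of 3 Rab5 forms that govern fusion of early endosomes, had 3.16, 1.36, 2.83, 3.24 and 1.99 FPKM in control dams and was listed in high fat dam 1 alone, at 1.5 FPKM (log2FC -1.45, SE 0.466, limma adjusted p = 0.0322). Rab5a, at 8.44 ± 2.47 FPKM (SD, n = 5) and 2.82 ± 2.18 FPKM (SD, n = 4), had a log2FC of -1.41 that did not pass (adjusted p = 0.0656). Rab20, Rab21 and Rab22a had adjusted p-values from 0.061 to 0.14, and Rab31 was listed in control dam 5 alone, at 1.47 FPKM.

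Rab5c, the most abundant Rab5 form (chr11:100715009-100738215, minus strand, GRCm38), had 20.0, 6.89, 15.5, 19.9 and 10.3 FPKM in control dams and 9.19, 4.23, 1.19 and 3.48 FPKM in high fat dams. High fat dam 1 was above control dam 2, and the change missed the threshold (log2FC -1.60, SE 0.651, limma adjusted p = 0.0578). Within a library, the ratio of Rab5c to Rab1a, one of 11 ratios computed, was 0.286, 0.395, 0.298, 0.328 and 0.367 in control dams and 0.229, 0.261, 0.221 and 0.210 in high fat dams. Every control ratio was above every high fat ratio, while the diets overlapped in each of the other ratios computed. This ratio uses the same Rab5c values as the scaled comparison given further on, so it is no separate result. In high fat dam 3 the authors' bounds for Rab5c ran from 0 to 2.66 FPKM, so that ratio is imprecise.

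Among late endosome and lysosome Rabs, Rab7b fell, 1 of 5 tested. Rab7b acts between late endosomes and the Golgi. Its level was 4.66, 2.92, 3.61, 14.2 and 2.34 FPKM in control dams and 1.97 and 2.70 in high fat dam 1 and 2, with high fat dam 3 and 4 unlisted (log2FC -1.60, SE 0.549, limma adjusted p = 0.0378). Control dam 4 stood far above the other control libraries. Rab7, which drives late endosomes to lysosomes, was the most abundant of this role, at 13.8, 9.25, 16.6, 20.4 and 24.6 FPKM in control dams and 16.4, 10.1, 1.09 and 3.06 FPKM in high fat dams. High fat dam 1 and 2 lay inside the control range and high fat dam 3 and 4 below it (log2FC -1.43, adjusted p = 0.0909). Rab9, Rab24 and Rab29 had adjusted p-values from 0.0792 to 0.195.

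The Rabs of cilia and other roles included no called gene among 3 tested. Rab28, found at the base of cilia, had 3.26 to 6.84 FPKM in control dams and 1.64 to 3.46 FPKM in the 3 high fat libraries that listed it (log2FC -1.25, limma adjusted p = 0.0731). Rab34 and Rab40c had log2 fold changes of -0.87 and -0.50 with adjusted p-values of 0.161 and 0.255. Rab40b was listed in control dam 1 alone, at 2.73 FPKM.

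Of the R-SNAREs, 1 of 7 tested genes fell, Vamp2. Vamp2 (chr11:69088490-69092384, plus strand, GRCm38) is the R-SNARE of regulated exocytosis. It had 2.83, 3.74, 3.76, 2.62 and 9.56 FPKM in control dams and 3.32 FPKM in high fat dam 1, and was unlisted in the other 3 high fat libraries (log2FC -1.81, SE 0.524, limma adjusted p = 0.0250). The single high fat value lay inside the control range.

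Vamp8, the R-SNARE of exocytosis in exocrine glands and of late endosomes, was the most abundant SNARE gene, at rank 560 of all genes. It had 59.8, 16.8, 36.3, 66.3 and 24.4 FPKM in control dams and 36.7, 23.0, 5.13 and 11.9 FPKM in high fat dams. The groups overlapped, with means of 40.7 ± 21.7 FPKM (SD, n = 5) and 19.2 ± 13.8 FPKM (SD, n = 4) and no call (log2FC -1.18, SE 0.768, limma adjusted p = 0.178). Its neighbour Vamp5, which lies next to it on chromosome 6 (chr6:72368794-72380468 and chr6:72385223-72390703, both on the minus strand), was listed in control dam 3 alone, at 1.97 FPKM. Only Vamp8 of these neighbours was listed in all 9 libraries.

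Vamp4, of the trans-Golgi network, had 3.03 to 14.3 FPKM in control dams and 1.15 to 7.68 FPKM in high fat dams (log2FC -0.84, limma adjusted p = 0.221). Vamp7, of late endosomes and apical exocytosis, had 1.84 to 8.87 FPKM in control dams. It had 1.59 to 4.91 FPKM in high fat dams and was unlisted in high fat dam 3 (log2FC -1.17, adjusted p = 0.0937). Neither passed the test. Sec22b, the R-SNARE between ER and Golgi, had 14.2 ± 4.45 FPKM (SD, n = 5) and 5.63 ± 3.18 FPKM (SD, n = 4), with a log2FC of -1.29 and an adjusted p of 0.104. Ykt6, a lipid-anchored R-SNARE, had 3.70 to 10.1 FPKM in control dams and 3.97 to 5.31 FPKM in the 3 high fat libraries that listed it (log2FC -1.10, adjusted p = 0.124). Vamp3 had an adjusted p of 0.0528, and Vamp1, listed at 1.12 and 3.38 FPKM in control dam 4 and 5, Vamp5 and Sec22a were not tested.

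Among the Qa-SNARE syntaxins, 3 of 10 tested genes fell (30%, beside 20.8% of all tested genes). Stx5a, the Qa-SNARE of the ER to Golgi step, had 12.4, 7.11, 11, 8.09 and 11.9 FPKM in control dams and 6.40, 3.43, unlisted and 3.48 in high fat dams (log2FC -1.65, SE 0.622, limma adjusted p = 0.0484). Stx4a, of basolateral and general plasma membrane fusion, had 1.99 to 4.49 FPKM in control dams and was listed in high fat dam 1 and 2 at 1.45 and 1.01 FPKM (log2FC -1.33, SE 0.486, adjusted p = 0.0439). Stx1a, best known from the synapse, had 1.30, 1.87, 1.11, 1.27 and 2.69 FPKM in control dams and was unlisted in all 4 high fat libraries (log2FC -1.37, SE 0.413, adjusted p = 0.0281). In each of these 3 genes every control value as deposited was above every high fat value, and for Stx1a all values were near the listing limit. After size factors the diets overlapped in Stx5a and Stx4a. For example, scaled Stx5a was 6.37 in high fat dam 4 and 3.82 in control dam 4.

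Stx3, the Qa-SNARE of the apical membrane, had 3.57, 2.83, 3.67, 4.25 and 3.98 FPKM in control dams and 1.80, 1.07, unlisted and 2.27 in high fat dams. These ranges did not overlap, but the diets did overlap after size factors. The change did not pass over all genes (log2FC -1.15, SE 0.524, limma adjusted p = 0.0796). Its control values as deposited kept within a narrow band, 3.66 ± 0.533 FPKM (SD, n = 5), unlike those of Rab18 or Vamp8. After size factors they spread from 1.53 to 3.95, so the narrow band was not kept on that scale. Stx7, of late endosomes, and Stx12, of recycling endosomes, had log2 fold changes of -1.42 and -1.13 with adjusted p-values of 0.0546 and 0.0908. The other 4 tested genes, Stx16, Stx17, Stx18 and Stx19, had adjusted p-values from 0.0723 to 0.168. Stx2 was listed in control dam 5 alone, at 1.60 FPKM.

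Stx11, a syntaxin of immune cells, was listed in high fat dam 1 alone, at 1.98 FPKM. Most of the listed leukocyte markers stood apart in the same library. Of 9 markers, 5 were listed: their sum was 5.52 to 14.3 FPKM in control dams, 96.1 in high fat dam 1 and 0 in high fat dam 2, 3 and 4, while Csf1r, Adgre1, Cd3e and Cd79a were unlisted everywhere. S100a8 was at 40.9 FPKM and S100a9 at 48.3 in high fat dam 1, most of the sum there, and Ptprc (CD45) and Csf3r were listed there alone, at 1.45 and 3.94 FPKM. Cd68 did not stand apart, at 1.54 FPKM in high fat dam 1 against 3.23 in control dam 3 and 4.33 in control dam 5. The part of leukocyte RNA in the Stx11 value was not tested. The other member listed in high fat dams alone was Rab2b, in high fat dam 4 at 1.09 FPKM.

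Of the 4 Qbc- and Qc-SNAREs, Stx8 fell. Stx8, a Qc-SNARE of late endosomes, had 12.0, 2.26, 8.20, 9.42 and 6.55 FPKM in control dams and 6.32 and 3.68 FPKM in high fat dam 1 and 2 (log2FC -1.71, SE 0.6, limma adjusted p = 0.0404). Both high fat values were above control dam 2. Snap23, the Qbc-SNARE of the plasma membrane in non-neuronal cells, had 15.6, 6.53, 16.2, 18.3 and 7.90 FPKM in control dams and 12.7, 9.29, 1.78 and 3.86 FPKM in high fat dams, with no call (log2FC -0.97, SE 0.663, adjusted p = 0.193). Snap29, the other Qbc gene, had an adjusted p of 0.0771.

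Stx6, the Qc-SNARE of the trans-Golgi network, had 9.0, 3.19, 7.08, 11.1 and 4.16 FPKM in control dams and 7.35, 3.29, 1.60 and 7.48 FPKM in high fat dams. High fat dam 4 held the highest of the high fat values here, whereas among the 18 members listed in all 9 libraries that place went to high fat dam 1 in 13 and to high fat dam 2 in 4. The log2 fold change was -0.47 (SE 0.612, limma adjusted p = 0.472), 0.61 above the median of all genes, and it was 0.58 after size factors.

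**Figure D4:**
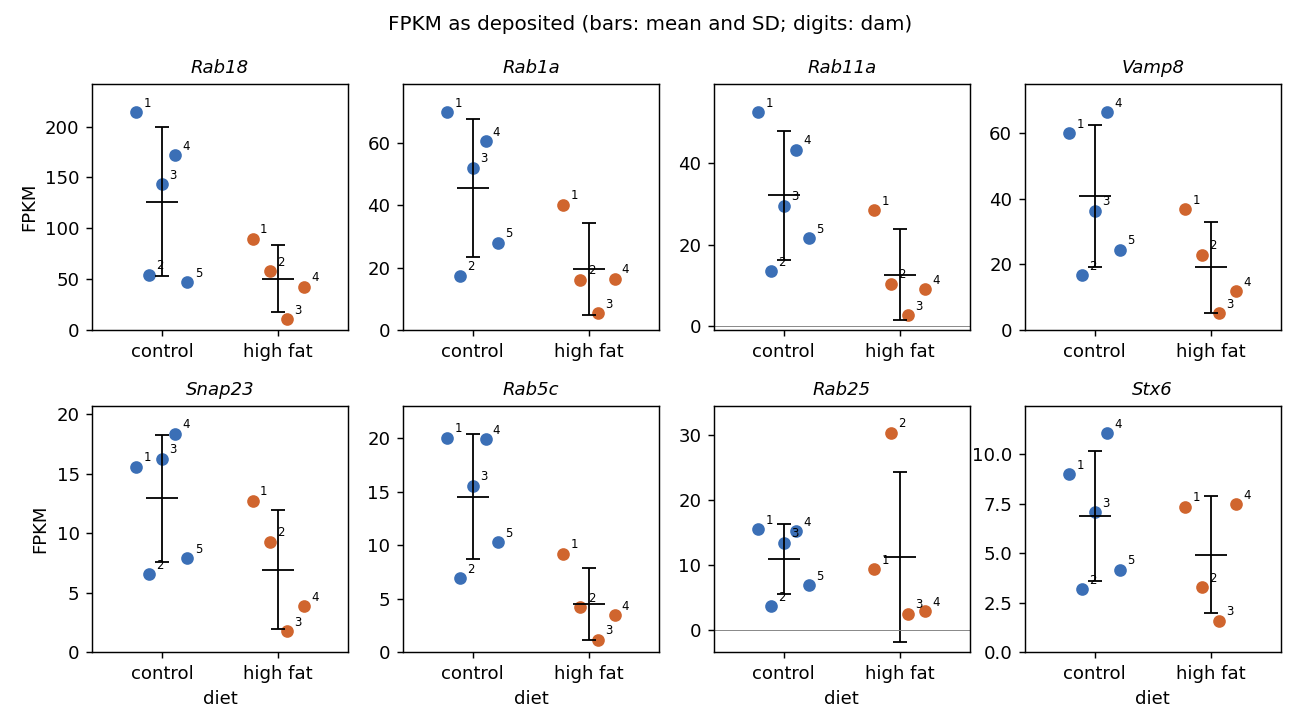
FPKM as deposited for 8 members listed in all 9 libraries, each point a library with its dam number, with mean and SD by diet. The diets overlap in all 8, with high fat dam 3 lowest among high fat libraries and high fat dam 2 highest of all for Rab25.

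The antisense RNA Rab10os had the smallest adjusted p of the members. It was listed at 1.79, 2.23, 1.70, 1.46 and 3.22 FPKM in control dams and in no high fat library (log2FC -1.60, SE 0.428, limma adjusted p = 0.0189). Rab10os (chr12:3235504-3250377, plus strand) overlaps the end of Rab10 (chr12:3247430-3309969, minus strand, GRCm38). The library kit was stranded but the strand setting of the counting is not given in the sources used here, so reads of the pair may not be fully separated. Rab26os was listed at 4.37 FPKM in control dam 1 and 4.47 in control dam 5, and in no other library.

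Size factors placed the members listed in all 9 libraries on a common scale. The median coefficient of variation over the 9 scaled libraries was 21.7% for the 18 members and 30.3% for the 1847 genes listed in all 9. Vamp8 had 24.7 ± 4.18 scaled FPKM in control dams (SD, n = 5) and 24.8 ± 2.47 in high fat dams (SD, n = 4), with a log2 fold change of 0.01. Rab1a had 27.8 ± 2.78 and 25.8 ± 4.61, and Rab18 had 74.4 ± 17.0 and 65.3 ± 11.7. For these 3 members the difference between the diets was thus smaller than the SD within either diet once the libraries stood on 1 scale. For Rab11a, at 19.8 ± 2.50 and 15.4 ± 3.54, the difference was larger than either SD, although the diets overlapped (log2FC -0.36). This scaling sets the typical gene near no change: the median log2FC of the 1847 genes was 0.013.

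Among the 18 members listed in all 9 libraries, Rab5c was the single one whose scaled groups did not overlap, beside 1.62% of the 1847 genes with the control diet higher and 1.89% with the high fat diet higher. Its scaled level was 9.20 ± 0.647 FPKM in control dams (SD, n = 5) and 5.86 ± 0.626 in high fat dams (SD, n = 4). The log2FC of -0.58 (SE 0.145, unadjusted p = 0.00227) did not pass the test over the 1847 genes (limma adjusted p = 0.457), a fit that called 0 genes, with unadjusted p-values under 0.05 for 96 lower and 80 higher ones. Over all settings tried, the adjusted p of Rab5c ran from 0.000649 to 0.58. Rab25 in high fat dam 2, at 36.6 scaled FPKM, and Stx6 in high fat dam 4, at 13.7, stood above the other 3 libraries of their diet.

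**Figure D5:**
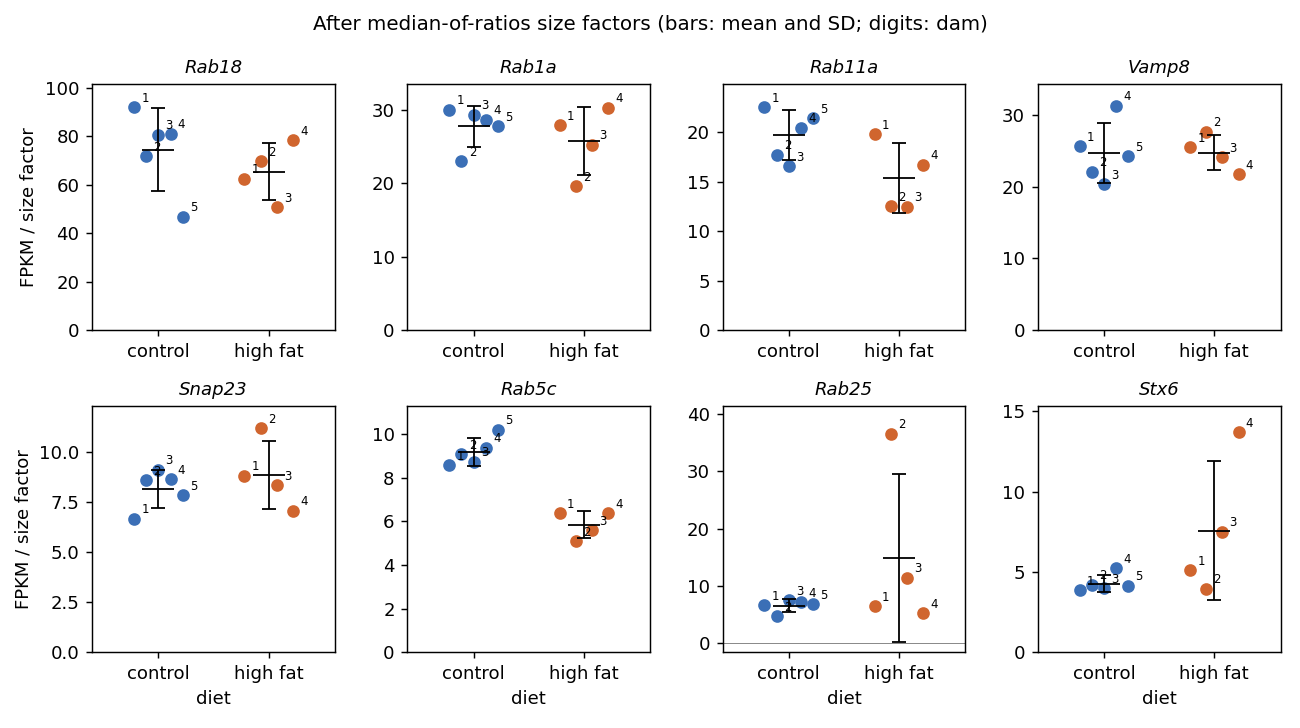
The same 8 members after division by each library's median-of-ratios size factor, each point a library with its dam number, with mean and SD by diet. Of these 8, Rab5c is the one panel where the diets do not overlap, and Rab25 in high fat dam 2 and Stx6 in high fat dam 4 stand apart from the rest of their group.

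The proteins that load, recycle and unlock Rabs and SNAREs were read from a separate list of 69 genes, of which 61 were listed and 54 tested. Of these, 8 were lower in high fat dams (14.8%, beside 20.8% of all genes) and 0 higher, with a median log2FC of -0.94. They were 2 of 26 Rab regulators, 5 of 21 other SNAREs and SNARE cofactors and 1 of 7 exocyst subunits. Gdi2, the GDP dissociation inhibitor that keeps inactive Rabs soluble, was the most abundant, at 17.5 to 64.0 FPKM in control dams and 5.07 to 33.7 FPKM in high fat dams, and did not pass the test (limma adjusted p = 0.152).

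Tbc1d15, a GTPase-activating protein for Rab7, fell from 3.67 to 8.61 FPKM in control dams to 4.26 and 1.55 FPKM in high fat dam 1 and 4 (log2FC -1.77, SE 0.557, limma adjusted p = 0.0314). Vps33a, which templates SNARE assembly at lysosomes, was listed in 4 control libraries at 1.48 to 2.99 FPKM and in no high fat library (log2FC -1.35, SE 0.424, adjusted p = 0.0314). Bet1l, a Golgi SNARE, had 1.48 to 2.93 FPKM in the 5 control libraries, and high fat dam 1 alone listed it among the others, at 1.94 (log2FC -1.33, SE 0.466, adjusted p = 0.0402). These 3 genes were low in level and unlisted in at least 1 high fat library, as the called Rab and SNARE genes were. Napa, the alpha-SNAP that helps pull spent SNARE complexes apart, named after its values were seen, was the called partner listed in all 9 libraries. It had 19.7, 11.3, 17.6, 12.7 and 19.3 FPKM in control dams and 7.58, 5.01, 1.26 and 4.32 FPKM in high fat dams, without overlap as deposited (log2FC -1.75, SE 0.656, limma adjusted p = 0.0473). After size factors, 2.12 in control dam 4 and 0.546 in high fat dam 4, the latter library stood above the former. The diets thus overlapped in Napa on that scale.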

How the data were processed

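FPKM values with lower and upper bounds were deposited by the authors in a separate table for every library, per the file headers. TopHat, Bowtie2, Cufflinks, HTSeq, DESeq2, Trimmomatic and FastQC appear among the tools in the submitters' processing notes. The sources used here give neither versions nor the strand setting nor the build, and FPKM keeps no total, so the depth is unknown. Of the gene IDs, 11171 of 11206 matched GENCODE M21 (GRCm38), and 9315 had identical bounds. From there, log2(FPKM + 1) was fitted with limma 3.58.1 in R 4.3.3 with the trend of variance on mean level, by diet alone, over the 7983 genes with at least 1 FPKM in at least 4 libraries, unlisted genes as 0, Benjamini-Hochberg threshold 0.05. On this scale a fold change understates that of low genes. Size factors were medians of ratios over genes listed in all 9 libraries. Genes were named by a rule: called members, the 10 most abundant, the most abundant and the smallest p in each role, a set with a known part in milk or apical secretion, and those listed on 1 diet only; of the partners, 4 called, of which 1 is not reported here, and the most abundant. Members and lists were chosen with earlier results of these data known. Alternatives changed pseudocount, filter, scaling, weights, variance model, replicate block and libraries; scaling to protein-coding FPKM and size factors over genes listed in all 9 were added after seeing the data.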

Additional observations from a re-analysis of the deposited data

Results flagged for a closer look

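Among 49 groups of named members listed in every library of a diet, 2 had a library far from the others, where chance alone gives about 1 in 20. Rab7b was at 14.2 FPKM in control dam 4 and at 2.34 to 4.66 FPKM in the other control libraries. Vamp2 was at 9.56 FPKM in control dam 5 and at 2.62 to 3.76 FPKM in the other control libraries. Each of these values raises the control level of a gene that was called lower on the high fat diet.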

How the results depend on the processing

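The 13 members and 1662 genes called lower depended on the processing. With a pseudocount of 0.1 they were 2 and 145, with unlisted genes at 1 FPKM 0 and 87, without a filter 0 and 13, over genes listed in all 9 libraries 0 and 15, without the variance trend 0 and 11, and with array weights 51 and 6714. Both were 0 after size factors, quantile normalisation, scaling to protein-coding FPKM, size factors over genes listed in all 9, and without high fat dam 2 and 3. With libraries at 1 summed FPKM they were 8 and 1480. Leaving out 1 library gave 0 to 38 members and 16 to 5215 genes lower, and 0 to 4 genes higher; genes higher were 13 with array weights. Each called member passed in 4 to 9 of the 21 settings that could be fitted, the reported one included. Replicate numbers were shared between the diets by name only (correlations of same-numbered deviations 0.142, -0.285, 0.0431 and -0.0882), and the replicate block gave 0 members and 29 genes lower and 4 higher. Members higher were 0 in all settings. The median of all genes was -1.08 as deposited, -0.55 after size factors, -0.61 with protein-coding scaling, -0.90 with summed FPKM and 0.03 after quantile normalisation. Of the fold changes of named members under the alternatives, 462 kept direction and call, 205 lost and 39 gained a call, and 24 changed sign. The sign changes with size factors, from either gene set, were Rab25 0.70, Stx6 0.58, Vamp4 0.16, Snap23 0.095 and Vamp8 0.011. After quantile normalisation they were Rab25 0.81, Stx6 0.77, Vamp4 0.31, Rab33b 0.23, Snap23 0.19, Rab8a 0.11, Vamp8 0.11 and Rab15 0.045. With protein-coding scaling they were Rab25 0.55, Stx6 0.42 and Vamp4 0.014. Rab25 was 0.040 at 1 summed FPKM and -1.05 to 0.014 when 1 library was left out, positive without high fat dam 3, and Stx6 was 0.20 without high fat dam 2 and 3. Beyond fewer genes or samples in a fit, the cause was not tested. Members near 1 FPKM limit what high fat dam 3 can show.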
